A study of Mus musculus with 6 samples.

Results

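Glycolysis, lactate and pyruvate handling were described isoform by isoform in mouse carotid body against adrenal medulla, over a list of 38 genes named by symbol. A gene was kept where a probe set of the array was annotated to that symbol alone, and it was represented by its brightest such probe set over the 6 arrays. This gave 33 genes of 18193 named genes on the array. Gapdh carried its symbol alone only on 3 manufacturer control probe sets, which stay out of the test, and its other 3 probe sets are annotated to other genes as well. Gpi1, Pfkfb1, Eno1 and Mpc2 are not analysed here. The carotid body, a chemoreceptor organ at the carotid artery that senses low blood oxygen, was represented by 3 pools of 18 organs. The adrenal medulla, the catecholamine-secreting core of the adrenal gland, was represented by 3 pools of 10 organs. Each pool came from 10 untreated adult mice of strain C57/BL6, and pools of the same number are stated to come from the same of 3 cohorts. In the label check Olfr78, a receptor known from carotid body glomus cells, was 11.18 to 11.90 in carotid body against 4.96 to 5.89 in adrenal medulla. Carotid body array 1 stands apart, with summed adrenal cortex markers at 14.92 (log2 of summed intensities), against 10.96 and 10.60 on the other carotid body arrays, and the genes past 2-fold are also given without it. Both tissues are mixtures of cells, so fewer cells of a type and less RNA per cell cannot be told apart.

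Glycolysis splits glucose into pyruvate in the cytosol. Pyruvate is then either reduced to lactate by lactate dehydrogenase, leaving or entering cells through monocarboxylate transporters, or carried into mitochondria, where the pyruvate dehydrogenase complex turns it into acetyl-CoA and pyruvate carboxylase into oxaloacetate. Many steps have several isoenzymes from separate genes that differ in regulation and in the tissues that use them, and the hypoxia-inducible factors are known to raise many of these genes when oxygen is low.

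The values are log2 intensities, 1 for each probe set and array, so a difference of 1 is 2-fold. All differences are carotid body minus adrenal medulla. They were fitted with limma across all 45037 probe sets, and p-values were adjusted by Benjamini-Hochberg over all of them. In carotid body 8 of the 33 genes rose and 6 fell at an adjusted p under 0.05, while 19 did not pass. Over all genes 10.9% were higher and 16.5% lower by the same rule. The share of higher genes, 24.2%, lay above that of all genes, and the share of lower genes, 18.2%, lay close to it. With a difference of at least 2-fold required as well, 3 were higher, namely Pdk4, Slc16a1 and Ldha (9.09%, against 5.91% over all genes). By that rule 2 were lower, namely Pfkfb2 and Eno3 (6.06%, against 6.08% over all genes). The list was brighter than all genes, keeping 31 of 33 genes against 12016 of 18193 with dim probe sets left out. Past 2-fold, 3 of those 31 and 1003 of those 12016 were then higher, and 2 and 1048 lower. For adjusted p alone the share over the 12016 genes was not taken, so the part of brightness in the 24.2% was not tested. The arrays of the tissues did not overlap for 8 genes higher and 8 lower in carotid body, against 17.8% and 26.1% of all genes. The median difference was -0.18 over the 33 genes and -0.04 over all genes. All 14 genes that passed moved the same way in the 3 cohort pairs. This follows from their arrays not overlapping between tissues and adds no support of its own.

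**Figure D1:**
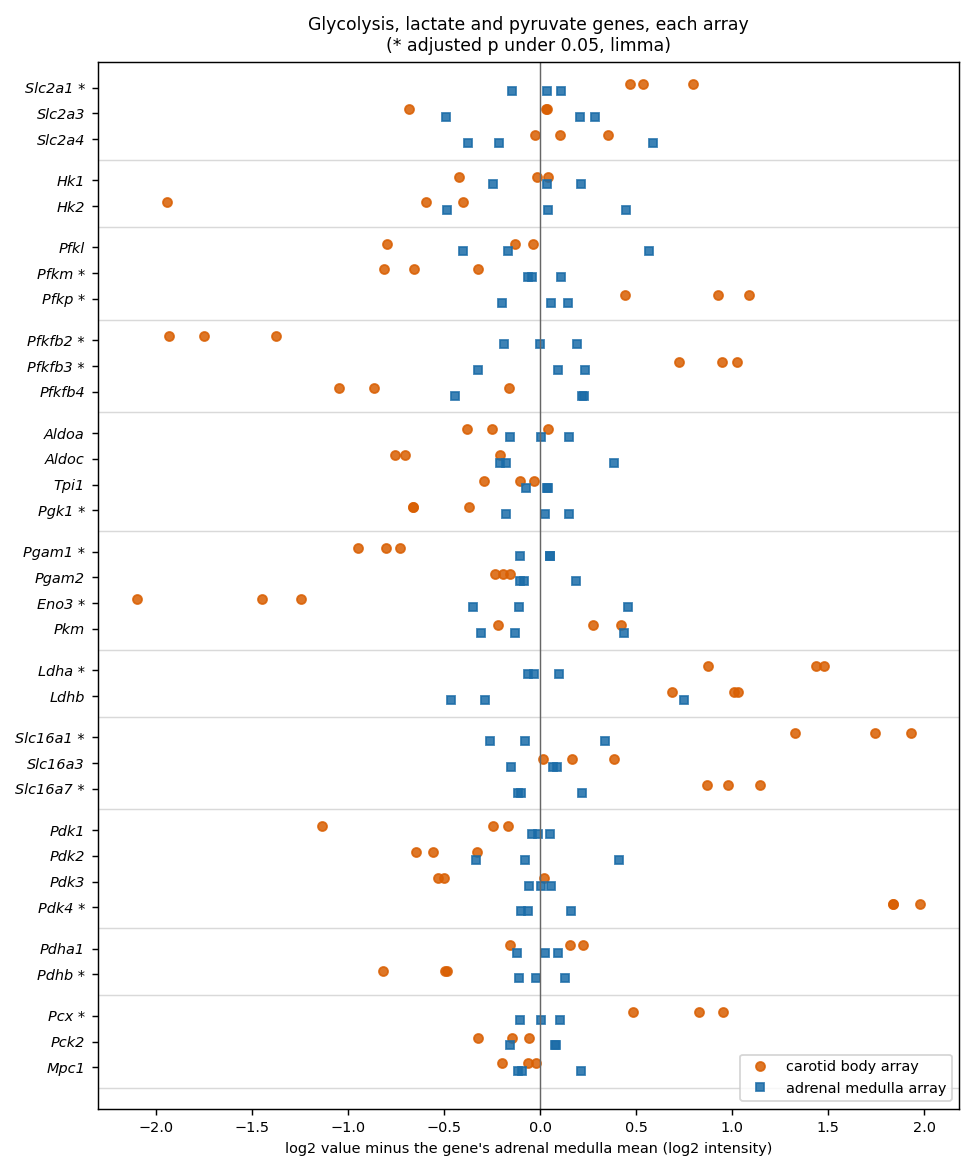
Log2 value of each of the 33 genes on each array, minus the mean of that gene in adrenal medulla (x axis, log2 intensity), with genes grouped by role down the page. Circles are the 3 carotid body arrays and squares the 3 adrenal medulla arrays, and asterisks mark the 14 genes with an adjusted p under 0.05. Pdk4 and Slc16a1 lie farthest to the right, Pfkfb2 and Eno3 farthest to the left among those marked.

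**Figure D2:**
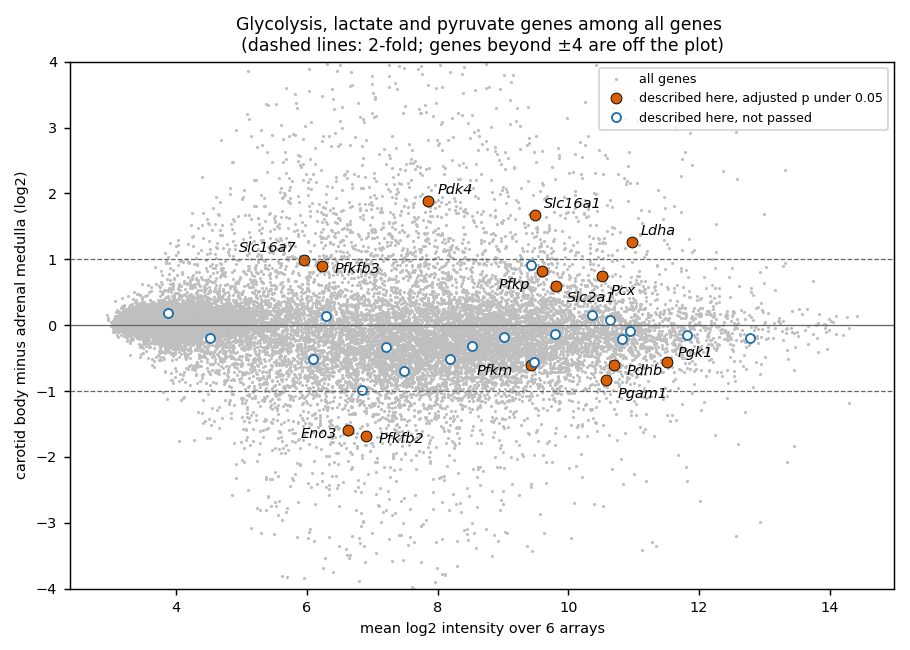
Difference between carotid body and adrenal medulla (y axis, log2) against the mean log2 intensity over the 6 arrays (x axis) for all genes in grey and the 33 genes in colour. Filled points passed an adjusted p under 0.05. Of these, 3 lie above the upper 2-fold line and 2 below the lower one.

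The promoters of the 5 genes past 2-fold are shown because members of this pathway are known targets of the hypoxia-inducible factors, whose core recognition sequence includes ACGTG. Sequences are from RefSeq (GRCm38.p6), 250 bases before to 50 after the first listed start of each gene, written 5′ to 3′ on the gene's strand. Capitals mark ACGTG or its reverse complement. The hexamer CACGTG holds both, so it counts as a match on each strand. The windows are chr6:5496229-5496528 (minus strand) for Pdk4, chr3:104638414-104638713 (plus) for Slc16a1, chr7:46845554-46845853 (plus) for Ldha, chr1:130715772-130716071 (minus) for Pfkfb2 and chr11:70656926-70657225 (plus) for Eno3.
Pdk4: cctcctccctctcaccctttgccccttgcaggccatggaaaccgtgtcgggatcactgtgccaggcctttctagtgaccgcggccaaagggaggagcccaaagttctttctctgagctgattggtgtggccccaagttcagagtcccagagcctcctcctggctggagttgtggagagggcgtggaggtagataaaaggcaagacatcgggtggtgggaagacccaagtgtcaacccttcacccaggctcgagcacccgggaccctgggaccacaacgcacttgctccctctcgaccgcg
Slc16a1: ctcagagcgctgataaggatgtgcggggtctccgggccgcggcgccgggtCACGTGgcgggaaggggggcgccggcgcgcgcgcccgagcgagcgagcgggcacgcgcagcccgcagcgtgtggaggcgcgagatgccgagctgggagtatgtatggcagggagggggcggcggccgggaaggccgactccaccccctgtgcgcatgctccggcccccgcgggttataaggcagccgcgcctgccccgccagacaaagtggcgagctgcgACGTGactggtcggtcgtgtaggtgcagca
Ldha: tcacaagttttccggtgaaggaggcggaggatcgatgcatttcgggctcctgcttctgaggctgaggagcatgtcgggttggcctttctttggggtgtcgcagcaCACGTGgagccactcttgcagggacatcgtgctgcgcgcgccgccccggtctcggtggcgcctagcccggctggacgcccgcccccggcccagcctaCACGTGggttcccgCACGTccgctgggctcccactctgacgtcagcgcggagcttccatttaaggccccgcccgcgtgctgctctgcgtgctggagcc
Pfkfb2: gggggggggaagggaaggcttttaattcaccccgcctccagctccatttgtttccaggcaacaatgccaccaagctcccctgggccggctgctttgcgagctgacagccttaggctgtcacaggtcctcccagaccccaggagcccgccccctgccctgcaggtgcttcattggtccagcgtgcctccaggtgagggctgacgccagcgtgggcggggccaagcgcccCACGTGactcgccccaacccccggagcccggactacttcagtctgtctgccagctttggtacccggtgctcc
Eno3: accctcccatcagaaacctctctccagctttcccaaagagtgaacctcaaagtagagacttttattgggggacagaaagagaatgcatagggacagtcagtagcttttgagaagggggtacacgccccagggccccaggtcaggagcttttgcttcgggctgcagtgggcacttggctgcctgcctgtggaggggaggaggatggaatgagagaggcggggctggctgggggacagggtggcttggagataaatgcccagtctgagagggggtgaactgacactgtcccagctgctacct

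The Ldha window held 5 matches, the first at base -145 counted from the start, and 4 of them lay in 2 CACGTG hexamers. That of Slc16a1 held 3, with a CACGTG hexamer at base -200 and a single match at base 20. The Pfkfb2 window held 2 matches in a hexamer at base -22, and those of Pdk4 and Eno3 held 0. The 2 genes without a match were thus one higher and one lower in carotid body. Promoter windows were listed for 30 of the 33 genes. At least 1 window had a match for 5 of 7 higher genes, 5 of 6 lower genes and 8 of 17 that did not pass. Over the 30 genes this was 60.0%, against 26.1% of the array's genes with a listed window, and with only the first listed start it was 15 of 30 genes, against 23.2%. A match is a description of the letters and not a site of binding.

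Of the 3 glucose transporters 1 passed, and of the 2 hexokinases none. Slc2a1, the widespread basal glucose transporter, was 10.31, 10.05 and 9.98 in carotid body, against 9.55, 9.37 and 9.63 in adrenal medulla. All carotid body arrays lay above all adrenal medulla arrays, and the difference was 0.60 ± 0.14 (SE; limma adjusted p = 0.0167; 0.0753 without adrenal medulla array 2). Its 2 dimmer probe sets differed by 0.49 and 0.09 and did not pass. Slc2a3, a high-affinity transporter of neurons, averaged 10.71 ± 0.41 in carotid body, against 10.92 ± 0.43 in adrenal medulla (mean ± SD throughout, n = 3). The insulin-responsive Slc2a4 averaged 6.37 ± 0.19 and 6.22 ± 0.52. The arrays of the tissues overlapped for both genes, and neither passed (limma adjusted p = 0.651 and 0.747).

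Hexokinases phosphorylate glucose so that it stays in the cell. Hk1, the form of most tissues, averaged 9.72 ± 0.25 in carotid body and 9.86 ± 0.23 in adrenal medulla. A second, dimmer Hk1 probe set differed by -1.03 ± 0.29 (SE; limma adjusted p = 0.0391), so the probe sets of this gene disagree. Hk2, the inducible form of muscle and fat, was 6.93, 5.39 and 6.74 in carotid body, against 6.85, 7.78 and 7.38 in adrenal medulla. Its difference of -0.98 ± 0.42 (SE) did not pass (limma adjusted p = 0.137), and carotid body array 2 was the lowest of all 6.

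The 3 phosphofructokinase genes, which encode the subunits of the committing step of glycolysis, went different ways. Pfkp, the platelet-type subunit, was 9.63, 10.28 and 10.12 in carotid body, against 8.99, 9.24 and 9.33 in adrenal medulla, a difference of 0.82 ± 0.19 (SE; limma adjusted p = 0.0179). Pfkm, the muscle-type subunit, was 8.91, 9.40 and 9.07 in carotid body, against 9.66, 9.83 and 9.68 in adrenal medulla, a difference of -0.60 ± 0.15 (SE; limma adjusted p = 0.0246). Neither gene overlapped between tissues, but each call was lost when certain single arrays were left out. For Pfkp these were carotid body array 2 (adjusted p = 0.0594) and adrenal medulla arrays 1 and 2 (0.0605 and 0.0594). Its 2 dimmer probe sets, near the floor of the scale, differed by 0.23 and -0.01. For Pfkm they were carotid body array 1 (adjusted p = 0.0608) and each adrenal medulla array (0.0554, 0.101 and 0.0706). Pfkl, the liver-type subunit, averaged 8.36 ± 0.41 in carotid body and 8.69 ± 0.51 in adrenal medulla and did not pass (limma adjusted p = 0.497). Its dimmer probe sets disagreed, at -0.52 and 0.43, each without overlap between tissues, and neither passed (limma adjusted p = 0.0603 and 0.112).

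The PFKFB enzymes make and remove fructose 2,6-bisphosphate, the strongest activator of phosphofructokinase. They were split as well. Pfkfb2, best known as the heart form, was 5.9999, 5.82 and 6.37 in carotid body, against 7.94, 7.75 and 7.56 in adrenal medulla. The gap between the groups was wider than the spread within either, and the gene fell 3.22-fold, by 1.69 ± 0.17 on the log2 scale (SE; limma adjusted p = 0.000613). Of its 3 dimmer probe sets, 1 also passed, at -0.45, and the others differed by -0.11 and -0.01. Pfkfb3, the inducible form with the highest kinase activity relative to phosphatase, was 6.51, 6.74 and 6.81 in carotid body, against 5.88, 6.02 and 5.46 in adrenal medulla. It rose by 0.90 ± 0.17 on the log2 scale (SE; limma adjusted p = 0.00814), while a second probe set near the floor of the scale differed by -0.10. Pfkfb4 was 6.96, 6.78 and 7.66 in carotid body, against 7.38, 8.05 and 8.04 in adrenal medulla, and did not pass (limma adjusted p = 0.114; 0.0194 without carotid body array 3).

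**Figure D3:**
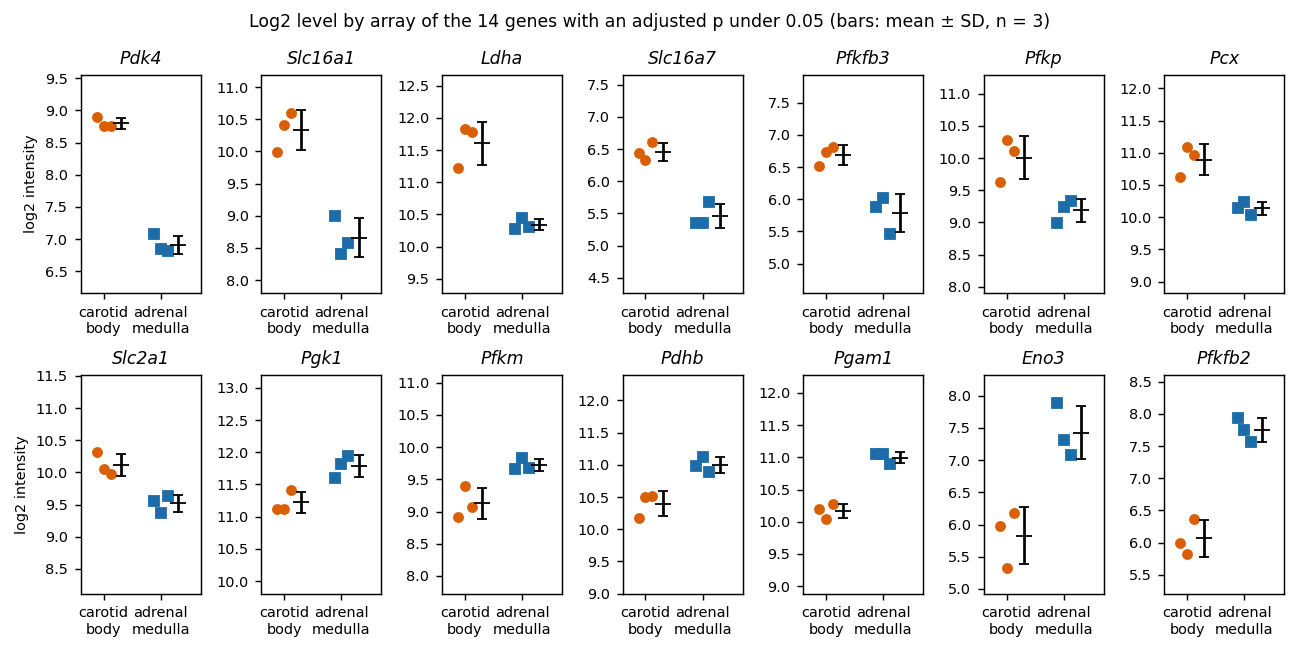
Log2 intensity (y axis) of the 14 genes with an adjusted p under 0.05 on each carotid body array (circles, left) and adrenal medulla array (squares, right), with mean ± SD (n = 3) beside them. Each panel spans the same number of log2 units around its own middle, and in none do the tissues overlap.

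In the middle of the pathway the abundant enzymes were close to level or lower in carotid body. Aldoa, the main aldolase of muscle and most tissues, averaged 12.68 ± 0.22 in carotid body and 12.88 ± 0.15 in adrenal medulla (95% interval of the difference -0.55 to 0.15). Aldoc, the aldolase of brain and glia, averaged 9.19 ± 0.30 in carotid body and 9.75 ± 0.33 in adrenal medulla. It did not pass (limma adjusted p = 0.105) unless the fit was blocked by cohort (adjusted p = 0.0174). Tpi1, which interconverts the triose phosphates, averaged 11.74 ± 0.13 and 11.88 ± 0.07 (95% interval -0.42 to 0.13). The intervals of the brightest Aldoa and Tpi1 probe sets leave out differences of 2-fold in either direction. Those of Aldoc (-1.05 to -0.06) and of a dimmer Aldoa probe set (difference -0.68, interval -1.53 to 0.18) do not. That Aldoa probe set did not pass (limma adjusted p = 0.239).

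Pgk1, the first ATP-forming enzyme of the pathway, was 11.12, 11.12 and 11.42 in carotid body, against 11.61, 11.81 and 11.94 in adrenal medulla. It fell by 0.56 ± 0.14 (log2, SE; limma adjusted p = 0.0242), and its 2 other probe sets differed by -0.87 and -0.50. The call was lost without carotid body array 1 (adjusted p = 0.0638), carotid body array 2 (0.0786), adrenal medulla array 2 (0.0909) and adrenal medulla array 3 (0.0940), each left out alone. Pgk1 is X-linked, as are Pdha1 and Pdk3. Xist, the transcript that silences an X chromosome in female cells, was 10.96, 8.84 and 9.82 in carotid body, against 4.45, 5.60 and 5.02 in adrenal medulla. It was higher in carotid body by 6.51, 3.23 and 4.80 within cohorts 1, 2 and 3. These values go against same-numbered pools holding the same animals, and the values by cohort pair are to be read with that. Sex is not given for the pools in the labels, and tissue and Xist level cannot be told apart here.

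Gapdh, which oxidises glyceraldehyde 3-phosphate, was read from its control probe sets with no test. At the 3′ end it was 12.47, 12.91 and 12.80 in carotid body, against 12.99, 13.45 and 12.84 in adrenal medulla, a difference of -0.37. In the middle of the transcript the difference was -0.80 and at the 5′ end -0.98. The 3′ minus 5′ gap, which grows as RNA is degraded, was 1.45, 1.04 and 0.59 in carotid body, against 0.51, 0.13 and 0.61 in adrenal medulla. For the Actb controls the difference between tissues was 0.004 at the 3′ end and -0.52 at the 5′ end. The part of RNA quality in the differences reported here was not tested. Between the arrays with alike gaps, carotid body array 3 and adrenal medulla arrays 1 and 3, Pdk4 differed by 1.81, Slc16a1 by 1.80, Ldha by 1.48, Pfkfb2 by -1.38 and Eno3 by -1.30. All 14 genes that passed kept their direction there. Pfkfb2, Eno3 and Pdk4 differed by less than over all arrays, as did Slc2a1 (0.39), Pgk1 (-0.36), Pgam1 (-0.70) and Pdhb (-0.42). The others that passed differed by more. Of those that did not pass, Pfkfb4 differed by -0.0483 and Pdk3 by -0.00589. Pfkl (0.24), Slc2a3 (0.14), Slc2a4 (-0.00162), Hk1 (0.0873), Slc16a3 (-0.0588) and Mpc1 (0.084) turned their sign. That comparison was chosen after the data were seen and has no test.

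Lower glycolysis held 2 further genes that fell. Pgam1, the phosphoglycerate mutase of most tissues, was 10.19, 10.05 and 10.27 in carotid body, against 11.05, 11.05 and 10.89 in adrenal medulla, and fell by 0.83 ± 0.12 (log2, SE; limma adjusted p = 0.00243). Eno3, the enolase of muscle, was 5.98, 5.32 and 6.18 in carotid body, against 7.88, 7.31 and 7.08 in adrenal medulla. The lowest adrenal medulla array lay above the highest carotid body array, and the gene fell 3.03-fold, by 1.60 ± 0.27 on the log2 scale (SE; limma adjusted p = 0.00548). Of 16 skeletal muscle markers 1 was higher and 2 were lower in carotid body at an adjusted p under 0.05, which is 6.25% and 12.5%, against 10.9% and 16.5% of all genes. Myl1, a fast myosin light chain, differed by -1.83, Actn3 by -0.58 and Tnnt3, a fast troponin, by 0.76. The other 13 markers did not pass. The summed level of the 16 markers was 8.69 to 8.84 in carotid body, against 9.12 to 9.27 in adrenal medulla (log2 of the sum of intensities). Myl1 had the largest difference of the 16 and was left out of a second sum after its value was seen. Those sums overlapped, at 8.51 to 8.65 in carotid body against 8.54 to 8.63 in adrenal medulla, which follows largely from that choice. The part of muscle cells in the Eno3 value was not tested.

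The muscle mutase Pgam2 averaged 4.42 ± 0.04 in carotid body and 4.62 ± 0.16 in adrenal medulla and did not pass (limma adjusted p = 0.309). Pkm, the pyruvate kinase that yields pyruvate and a second ATP, averaged 10.45 ± 0.34 in carotid body and 10.29 ± 0.39 in adrenal medulla (limma adjusted p = 0.695). Its splice forms were not resolved by the 1 probe set.

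Of the 2 lactate dehydrogenase genes 1 rose in carotid body, and of the 3 monocarboxylate transporters 2 rose. Ldha encodes the M subunit of lactate dehydrogenase, which favours making lactate. It was 11.22, 11.82 and 11.78 in carotid body, against 10.28, 10.44 and 10.31 in adrenal medulla. The tissues were clearly apart, with carotid body array 1 the lowest of its group, and the gene rose 2.40-fold, by 1.26 ± 0.18 on the log2 scale (SE; limma adjusted p = 0.00236). Ldhb encodes the H subunit, which favours turning lactate back into pyruvate. It was 9.66, 9.98 and 10.00 in carotid body, against 9.72, 8.68 and 8.51 in adrenal medulla.

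Adrenal medulla array 1 stood with the carotid body arrays for Ldhb, and the difference of 0.91 ± 0.30 (SE) did not pass (limma adjusted p = 0.0688). Without that array it was 1.28 (adjusted p = 0.00344). The 4 Ldhb probe sets differed by 0.59 to 1.24, and 1 of them passed (limma adjusted p = 0.0382). The summed adipocyte markers were likewise highest among the adrenal medulla arrays in array 1, at 12.46 against 11.82 and 11.56. Within carotid body the order was the opposite, with the sums at 12.56, 11.80 and 11.15 and Ldhb lowest in array 1. The part of adipocytes in the Ldhb value was not tested.

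Slc16a1 encodes MCT1, the proton-coupled transporter of lactate and pyruvate found in most tissues. It was 9.99, 10.40 and 10.59 in carotid body, against 8.998, 8.40 and 8.58 in adrenal medulla. It rose 3.18-fold, by 1.67 ± 0.21 on the log2 scale (SE; limma adjusted p = 0.00141), and all carotid body arrays lay above all adrenal medulla arrays. Its dim second probe set differed by 0.17. Slc16a7 encodes MCT2, the higher-affinity form known from neurons. It was 6.44, 6.33 and 6.61 in carotid body, against 5.35, 5.36 and 5.68 in adrenal medulla, and rose by 0.997 ± 0.14 (log2, SE; limma adjusted p = 0.00236), just under 2-fold. Slc16a3, which encodes MCT4 of strongly glycolytic cells, averaged 3.97 ± 0.18 and 3.79 ± 0.13, near the floor of the scale on all arrays (limma adjusted p = 0.389). Bsg, the chaperone of MCT1 and MCT4, averaged 10.45 ± 0.34 in carotid body and 11.30 ± 0.62 in adrenal medulla, and did not pass (limma adjusted p = 0.0913).

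Among the pyruvate dehydrogenase kinases, which switch the complex off by phosphorylating its E1 subunit, only Pdk4 passed. Pdk4, the form induced by fasting and fatty acids, was 8.89, 8.75 and 8.75 in carotid body, against 7.08, 6.85 and 6.82 in adrenal medulla. The arrays within each tissue were close together, and the gene rose 3.69-fold, by 1.88 ± 0.12 on the log2 scale (SE; limma adjusted p = 8.29e-05). Pdk1, a known target of hypoxia-inducible factor, was 8.20, 7.31 and 8.28 in carotid body, against 8.44, 8.41 and 8.50 in adrenal medulla, all 3 below the adrenal medulla arrays, and did not pass (limma adjusted p = 0.186). Pdk2, the form of most tissues, averaged 5.84 ± 0.16 in carotid body and 6.35 ± 0.38 in adrenal medulla (limma adjusted p = 0.111; 0.0388 when blocked by cohort). Pdk3 averaged 7.04 ± 0.31 and 7.38 ± 0.06 (limma adjusted p = 0.198; 0.0170 without carotid body array 3).

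Of the 2 genes for the E1 subunits of pyruvate dehydrogenase, 1 fell. Pdhb, the E1 beta subunit, was 10.18, 10.50 and 10.51 in carotid body, against 10.98, 11.13 and 10.89 in adrenal medulla, and fell by 0.60 ± 0.14 (log2, SE; limma adjusted p = 0.0175; 0.0789 without adrenal medulla array 2). Pdha1, the E1 alpha subunit, averaged 10.67 ± 0.20 and 10.60 ± 0.11 (95% interval of the difference -0.25 to 0.40). The dimmer probe sets of Pdhb and Pdha1 differed by -0.46 and -0.34, and neither passed (limma adjusted p = 0.0950 and 0.256). Of the other parts of the complex, the E3-binding protein gene Pdhx fell by 1.49 ± 0.18 on the log2 scale (SE; limma adjusted p = 0.00115). The E3 gene Dld fell by 1.08 ± 0.19 (limma adjusted p = 0.00552), and the E2 gene Dlat differed by -0.28 (adjusted p = 0.232). The activating phosphatase gene Pdp1 fell by 0.83 ± 0.17 (limma adjusted p = 0.0103), while the other phosphatase gene, Pdp2, differed by 0.32 (adjusted p = 0.184).

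Of the remaining 3 of the 33 genes, 1 passed. Pcx, pyruvate carboxylase, was 10.62, 11.09 and 10.97 in carotid body, against 10.14, 10.24 and 10.04 in adrenal medulla, and rose by 0.75 ± 0.15 (log2, SE; limma adjusted p = 0.00972). Pck2, the mitochondrial phosphoenolpyruvate carboxykinase, averaged 8.92 ± 0.14 in carotid body and 9.10 ± 0.14 in adrenal medulla. Mpc1, a subunit of the mitochondrial pyruvate carrier, averaged 10.90 ± 0.09 and 10.99 ± 0.18. The 95% intervals of their differences were -0.48 to 0.12 and -0.40 to 0.21.

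Isoform balance was read as the change between tissues of a log2 difference taken within each array, since levels of different probe sets cannot be compared directly. It is a description of 11 pairs with no test. The 2 pairs with Slc16a3 and Pgam2 are left out, since both genes averaged below every array's median in both tissues. Pfkfb2 minus Pfkfb3 was -0.51, -0.92 and -0.44 in carotid body, against 2.06, 1.73 and 2.10 in adrenal medulla, a shift of -2.58. Pdk4 minus Pdk2 shifted by 2.40, Pfkp minus Pfkl by 1.14 and Aldoc minus Aldoa by -0.36, also with no overlap between tissues. The value for Pfkp and Pfkl uses the brightest probe sets only, and the others of both genes differ from them. Ldhb minus Ldha overlapped, at -1.56, -1.84 and -1.78 in carotid body, against -0.56, -1.76 and -1.80 in adrenal medulla. Only adrenal medulla array 1 stood apart in that balance. The remaining 6 pairs overlapped between the tissues.

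**Figure D4:**
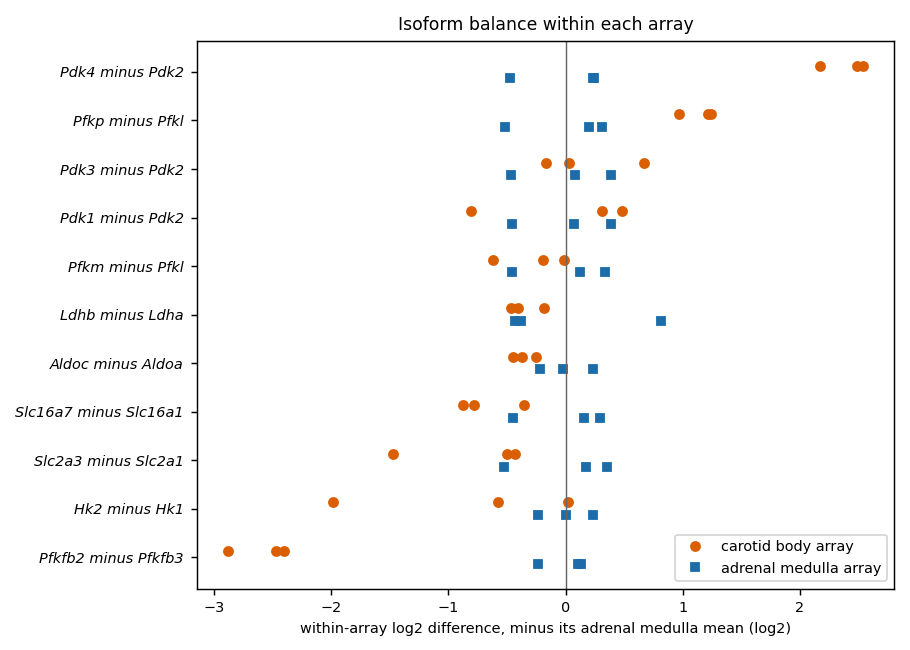
Within-array log2 difference of 11 isoform pairs, minus the mean of that difference in adrenal medulla (x axis, log2), on the carotid body arrays (circles, upper) and the adrenal medulla arrays (squares, lower). Pairs are ordered by their shift, from 2.40 for Pdk4 minus Pdk2 at the top to -2.58 for Pfkfb2 minus Pfkfb3 at the bottom.

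Neighbouring pathways are read against all genes, of which 10.9% rose and 16.5% fell. Of 52 other genes of glycolysis, gluconeogenesis and pyruvate metabolism 2 were higher and 11 lower in carotid body at an adjusted p under 0.05, 8 of the lower ones past 2-fold (limma; median difference -0.10). By adjusted p alone the share that fell, 21.2%, was near that of all genes, and the share that rose was 3.85%. Past 2-fold the share that fell was 15.4%, above the 6.08% of all genes. The 8 included Pdhx and Dld above. Got1, an aminotransferase of the malate-aspartate shuttle, averaged 6.95 ± 0.44 in carotid body and 9.52 ± 0.36 in adrenal medulla, a difference of -2.57 ± 0.26 (SE; limma adjusted p = 0.000528). Gpd1, of the glycerol phosphate shuttle, differed by -1.60, the mitochondrial D-lactate dehydrogenase Ldhd by -1.79, the gluconeogenic phosphatase Fbp1 by -1.83 and the glucose-6-phosphatase G6pc3 by -1.14. The NADP-dependent malic enzyme Me1 was 12.19, 9.90 and 9.82 in carotid body, against 13.12, 13.09 and 12.80 in adrenal medulla, so that carotid body array 1 stood apart from the other two. The higher count was 1 when any one of 4 arrays was left out, namely arrays 1 and 2 of carotid body and arrays 2 and 3 of adrenal medulla, and also 1 when blocked by cohort. Without cohort 2 the list had 0 higher and 5 lower.

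Of 15 citrate cycle genes 10 were lower and 0 higher in carotid body at an adjusted p under 0.05, none past 2-fold (66.7% of the list lower; median -0.58). The largest differences were -0.90 for Suclg2, a succinyl-CoA ligase subunit, and -0.78 for Sdhb, of succinate dehydrogenase. The lower count was 4 on leaving out carotid body array 2, and 4, 3 and 6 on leaving out adrenal medulla arrays 1, 2 and 3. It was 3 without cohort 1 and 0 without cohort 2. Of 7 pentose phosphate genes 1 was higher and 3 lower, with transaldolase Taldo1 alone past 2-fold at -1.55 ± 0.15 (SE; limma adjusted p = 0.000493). The higher one, Rpia, no longer passed when any array but carotid body array 1 was left out, when blocked by cohort, with median centring or with trended robust variances. Of 13 glycogen genes 4 were lower and 0 higher, led by muscle glycogen phosphorylase Pygm at -0.99 and the phosphorylase kinase subunit Phkb at -0.91, and 2 were lower without adrenal medulla array 2, 0 without cohort 2 and 1 without cohort 3.

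**Figure D5:**
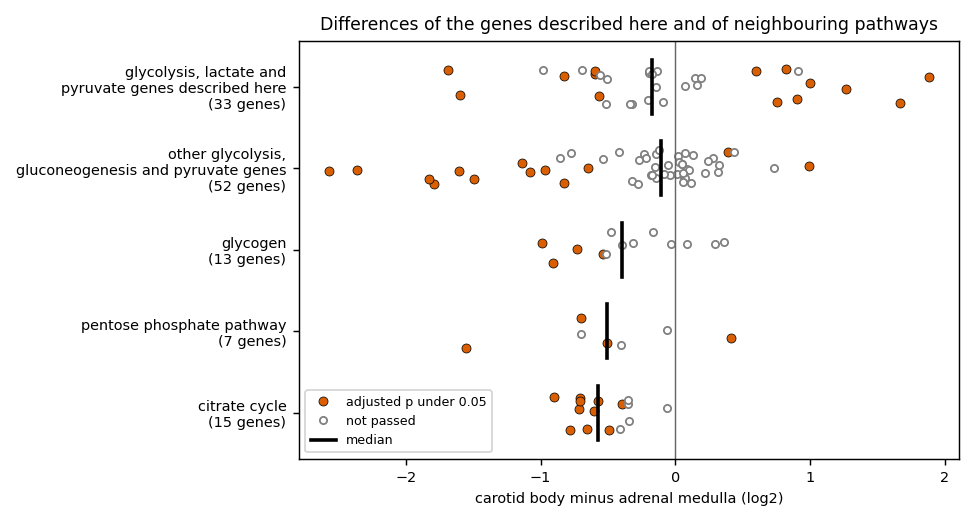
Difference between carotid body and adrenal medulla (x axis, log2) of each gene in 5 lists, 1 list per row, with bars at the medians. Filled points passed an adjusted p under 0.05. Points of the 33 genes lie on both sides of 0, with a median of -0.18, and all 15 citrate cycle genes lie below 0.

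The tissues differed in the levels of cell type markers as well, which do not give cell numbers. The counts are read against all genes, of which 5.91% were higher and 6.08% lower in carotid body past 2-fold. Of 12 fibroblast and matrix markers 12 were higher in carotid body past 2-fold, of 14 smooth muscle and pericyte markers 12, of 9 Schwann and glia markers 7, and of 10 endothelial markers 3. Their summed levels (log2 of summed intensities) were 15.70 to 15.93, 15.44 to 15.61, 13.84 to 13.97 and 12.56 to 12.82 in carotid body, against 12.93 to 13.23, 12.93 to 13.45, 11.88 to 11.97 and 11.67 to 11.99 in adrenal medulla. Markers of chromaffin and glomus cells, the secretory cells of the 2 organs, were lower past 2-fold in 7 of 10 cases, while Ddc, the decarboxylase that makes dopamine, rose by 0.81 (limma adjusted p = 0.0207). Their sums were 15.26 to 15.41 in carotid body, against 16.62 to 16.97 in adrenal medulla. Of 11 adrenal cortex markers 10 were lower past 2-fold, and the sums were 14.92, 10.96 and 10.60 in carotid body, against 16.22 to 16.70 in adrenal medulla. Cortex transcripts were thus high in every adrenal medulla pool and in carotid body array 1. Pnmt, of the chromaffin and glomus list, was also 11.13 on carotid body array 1, against 7.65 and 8.08 on the other carotid body arrays. The summed list, at 15.26, was lowest on that array among the carotid body arrays. The part of the marked cell types in the genes above was not tested. Without carotid body array 1, Pdk4 differed by 1.84, Slc16a1 by 1.84, Ldha by 1.46, Pfkfb2 by -1.65 and Eno3 by -1.67, and Pfkp and Slc16a7 also passed 2-fold, so 5 genes were called higher. Erythrocyte, neuron and macrophage marker lists had 0, 1 and 3 members higher past 2-fold, of 5, 11 and 8. The neuron list also had 1 lower (Rbfox3, -2.85), and its share in each direction, 9.09%, was near that of all genes. The summed adipocyte markers overlapped, at 11.15 to 12.56 in carotid body, against 11.56 to 12.46 in adrenal medulla.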

How the data were processed

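Expression was measured with 1 microarray for each of 6 pools, 3 of carotid body and 3 of adrenal medulla. Per the labels' protocols, tissue was collected over 2 days and RNA was amplified from its 3′ end. The deposited table holds log2 intensities, which the authors made with Affymetrix Expression Console (named in the submitters' processing notes). The sources used here do not give its version, summarisation or normalization between arrays, and the log2 scale was read from the values, which lie between 2.70 and 14.97. No detection calls were used here, so dim probe sets cannot be told from unexpressed genes.

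The 64 control probe sets were left out. Of the rest, 34945 carried 1 gene symbol in the platform annotation of 2016, 932 several and 9160 none. The 33 genes had 67 probe sets, and 18 of them had more than 1. Tests used lmFit and eBayes of limma 3.58.1 under R 4.3.3 (2 groups, no block), two-sided, at an adjusted p under 0.05. In data simulated with the observed means and spread of all 45037 probe sets, 100 were changed by 2 log2 units and 100 by 1 unit. Requiring 2-fold as well, 90 and 32 of these were recovered. In the measured data far more passed, 1988 genes higher and 2995 lower of 18193. The Benjamini-Hochberg adjustment depends on that number, so the recovery does not give the sensitivity of the comparison made here. A true change of 1 unit sits at the 2-fold cut-off, so estimates falling below it were not counted. Recovery by adjusted p alone was not measured. The number of arrays limits the precision.

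Same-numbered pools are of the same cohort of animals, per the series' design text, although Xist differed between them. Deviations from the tissue means correlated at 0.22, 0.08 and 0.16 within cohorts 1, 2 and 3, and at -0.21 to 0.10 between unlike cohorts. Alternatives were the cohort as a block, quantile normalization, median centring, leaving out dim probe sets, trended robust variances, array weights, other choices of probe set, and leaving out arrays or cohorts. All 33 genes are named, of the other pathway lists those past 2-fold or else the 2 largest differences, and of each marker list the 2 largest differences that passed, printed only where they bear on a result. Actn3, Bsg, Ddc, Dlat, Pdp1, Pdp2, Rpia, Olfr78 and Xist lie outside that rule and were named after their values were seen. The genes and lists were chosen with earlier results of these data known.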

Additional observations from a re-analysis of the deposited data

How the results depend on the processing

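With the cohort as a replicate block, quantile normalization, median centring, dim probe sets left out, trended robust variances or array weights, all 14 genes that passed kept their direction and passed. The block moved the genes passing lower from 6 to 8, adding Aldoc and Pdk2 (the other counts were 3 and 2 past 2-fold and 8 higher), and it changed no other call among the 33 genes. In the other lists it gave 1 higher and 14 lower of other glycolysis and pyruvate genes, 0 and 4 of pentose phosphate genes, and 9 lower citrate cycle genes. Ldhb, which did not pass, passed with dim or shared-sequence probe sets left out, trended robust variances or array weights, as did Pfkfb4 with array weights. Median centring moved the median difference of all genes to -0.15, from -0.04, and that of Pdha1 to -0.0411. When a gene's probe sets were averaged, 1 gene was lower past 2-fold because Pfkfb2, at -0.56, no longer reached it, Pfkp did not pass (0.35), Slc16a1 differed by 0.92, and Pdha1 and Slc2a4 turned to -0.14 and -0.0222. Leaving out single arrays or cohorts gave 3 to 5 genes higher and 1 to 2 lower past 2-fold, and 3 to 8 higher and 1 to 8 lower by adjusted p alone. The genes passing lower were 3 without adrenal medulla array 2 and 3 without cohort 1. Without cohort 2, 3 passed higher (Pdk4, Slc16a1 and Slc16a7) and 1 lower (Pfkfb2). Ldha then had an adjusted p of 0.05003 and Eno3 of 0.0650, and over all genes 807 and 532 were called past 2-fold, against 1075 and 1107 with all arrays. Among genes that did not pass, leaving out single arrays or cohorts turned the sign of 4. Hk1 ranged from -0.258 to 0.00973 and Slc2a3 from -0.452 to 0.0314, both turning without carotid body array 1. Mpc1 ranged from -0.181 to 0.0621, turning without adrenal medulla array 2 or cohort 2, and Slc2a4 from -0.0459 to 0.437, turning without adrenal medulla array 3 or cohort 3. The cause of these changes was not tested. Low signal over background limits what Slc16a3, Pgam2 and the dim probe sets can show. The planned pseudocount was not run, since the values are already log2.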
